A study of Mus musculus with 4 samples.

Results

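The genes described here are 10 regulators of the primitive streak and of the axial progenitors that succeed it: T, Nkx1-2, Evx1, Mixl1, Eomes, Sp8, Pou5f1, Sall4, Gdf11 and Lin28a. They were chosen by name, and a probe was taken as theirs where its gene name in the scanner files was one of these symbols or an older symbol matched by its transcript accession. That rule found all 10 genes and 13 of the 41174 probes on the array, with 3 probes for Nkx1-2, 2 for Sall4 and 1 for each other gene. The Lin28a probe carries the older symbol Lin28 in the files. The array holds 27573 named genes, of which 14843 were tested.

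The tissue was the posterior part of mouse embryos at 5 somites by the sample labels, or 5/6 somites by the series design, dissected at 1 axial level with the last somite boundary as landmark. Each of 4 Agilent arrays of 2 colours held RNA of Cdx2+/-Cdx4-/- embryos, which lack Cdx4 and carry 1 intact copy of Cdx2, beside RNA of wildtype embryos, each drawn from pools of 10 embryos per genotype. The arrays are labelled replicate 1, replicate 1 dye swap, replicate 2 and replicate 2 dye swap. Whether the replicates were drawn from separate pools is not stated. The p-values below rest on 4 hybridisations averaged into 2 values per gene, and part or all of their spread may be technical. The question put to these genes is whether the regulators of the growing end of the body axis were expressed at different levels once Cdx dosage was lowered.

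Epiblast cells pass through the primitive streak to form mesoderm and endoderm, and as the streak regresses a pool of axial progenitors stays in the tail end of the embryo and feeds both the spinal cord and the paraxial mesoderm. Wnt and Fgf signals and the transcription factor T, also called Brachyury, keep that pool, and Cdx proteins act with them to sustain posterior growth. The change from trunk to tail formation goes with falling pluripotency factors and Lin28 proteins and with the onset of Gdf11 signalling.

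All signs below depend on how the arrays were oriented. The Cdx4 probe gave Cy5 over Cy3 ratios (log2) of -2.59, -2.11, 2.82 and 2.42 on the arrays in the order above, which by the labelled dyes means less Cdx4 in the mutant on the first and last of these arrays and more on the other 2. Each array was therefore turned so that the Cdx4 ratio was negative, and the result is called the aligned ratio, mutant over wildtype on the log2 scale. Its direction is that of the labelled dyes on the first and last array. Going by the dyes labelled on the other 2, every sign below is the opposite one. Over all tested probes, ratios of Cy5 over Cy3 correlated at 0.82 within the arrays labelled replicate 1 and at 0.87 within those labelled replicate 2, and between -0.44 and -0.38 across them. With the labelled dyes instead, none of the 9 tested genes of the group passed, beside 0.104% of the 14445 genes tested in that way, and their mean ratios lay between -0.05 (Nkx1-2) and 0.02 (Evx1), with a limma adjusted p of 1.0 each. The labelled signs set the 2 arrays of a replicate number against each other, and Cdx4 itself averaged -0.02. If the arrays run as aligned, that fit could not detect a genotype difference.

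Aligned arrays were averaged into 2 values per gene and fitted in limma against 0, with Benjamini-Hochberg adjustment over all 14843 genes. The first fit averages by the labelled replicate numbers, so that dye bias stays in the spread. With 25.7 prior degrees of freedom there, each SE rests mostly on a spread pooled over genes. The second averages replicate 1 with replicate 2, and the 2 dye swaps with each other, which balances the dyes if the arrays run as aligned. In it limma gave every gene 1 pooled SE of 0.051, which leaves out the spread between replicates if the labelled numbers are right. Only genes with an adjusted p under 0.05 in both are called changed. Both fits test the same mean of the 4 arrays, and SEs are larger in the first (median 0.099). A pass in the first therefore brings a pass in the second, which adds no separate evidence. By replicate numbers 7.72% of all genes tested passed (3.28% higher and 4.44% lower), and all of these 1146 genes also passed with dye-balanced pairs, where 42.1% passed (22.6% higher and 19.6% lower). The aligned Cdx4 ratio was -2.48 on average, with a sign that the alignment sets, so that its test is no check. Cdx2 was at -0.54 ± 0.10 (SE, n = 2) and Cdx1 at 0.40 ± 0.11, and both passed in both fits.

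None of the 9 tested genes of the group was called changed. In the limma fit by replicate numbers 0 of 9 passed, and 2 of 9 had an unadjusted p under 0.05 (Nkx1-2 with a positive ratio and Sall4 with a negative one), beside 19.1% of all genes. With dye-balanced pairs 3 had positive ratios that passed (T, Nkx1-2 and Sp8) and 1 had a negative ratio that passed (Sall4). These 4 of 9 stand beside 42.1% of all genes in that fit, a similar share. In the remaining pairing, replicate 1 with replicate 2 dye swap and the other 2 with each other, 5 of 9 passed, Evx1 with a positive ratio being added, beside 55.4% of all genes. The median aligned ratio over the 9 genes was 0.0015, beside 0.015 over all genes tested, and their median size without regard to sign was 0.092, beside 0.096. The 95% intervals by replicate numbers reached at most from -0.47 to 0.43 over the 9 genes. Within this model, that is 1.38-fold lower or 1.35-fold higher in the mutant. These limits rest mostly on the spread pooled over genes. In bulk tissue, fewer cells of a type and less RNA per cell cannot be told apart. The remaining gene, Eomes, was too dim to test.

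**Figure D1:**
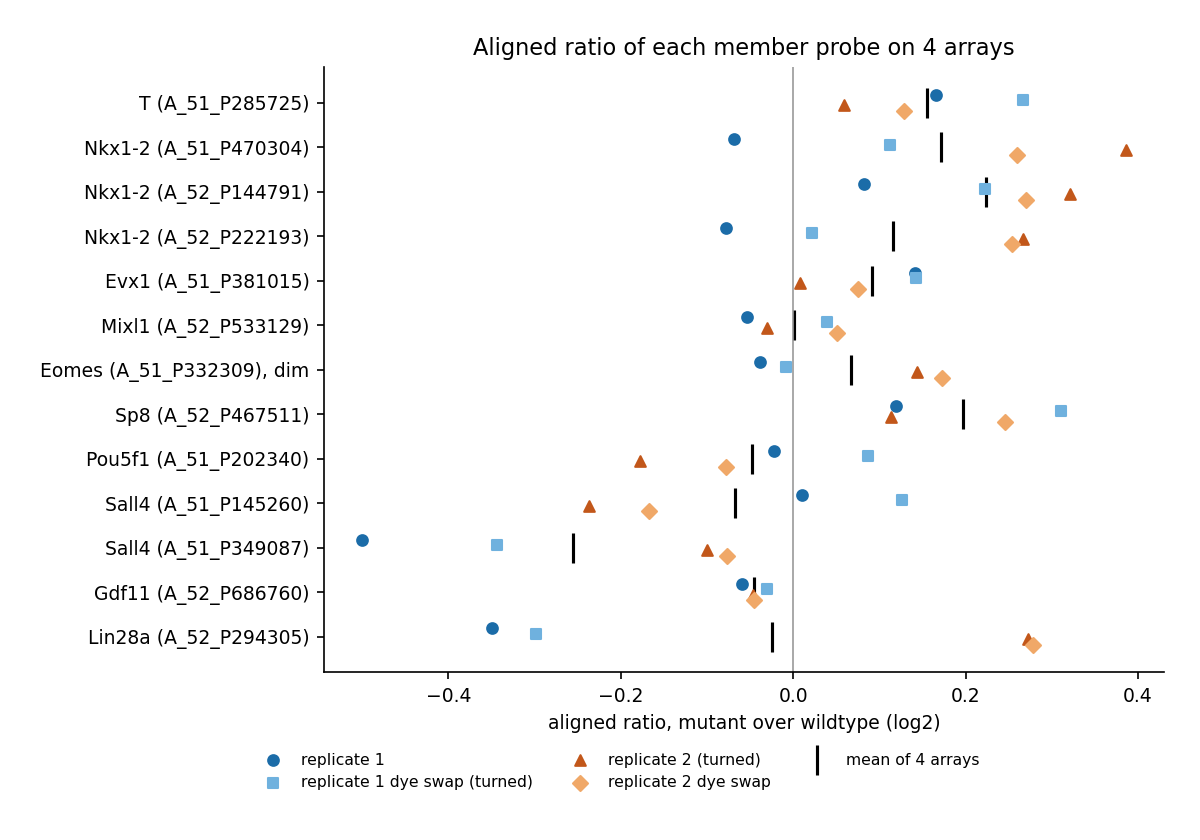
Aligned ratio, mutant over wildtype (log2, horizontal axis), of each of the 13 probes (vertical axis, gene and probe name) on the 4 arrays, with 1 symbol per array and a bar at the mean of the 4. The Eomes probe, marked dim, was not well above background and was not tested. T, Sp8, Evx1 and the brightest Nkx1-2 probe are positive and Gdf11 and the brighter Sall4 probe negative on all 4 arrays. Lin28a splits into negative values on the replicate 1 pair and positive values on the replicate 2 pair.

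Cdx proteins bind AT-rich sites of the kind CATAAA or AATAAA, and whether they bind the genes below was not tested. Sall4 passed the dye-balanced fit with a negative ratio, but no window was found for it. The windows before the start sites of the 3 genes that passed there with positive ratios are shown, a choice made from these same data. Each is the 250 bases before a transcription start in RefSeq on GRCm38.p6, 5′ to 3′ on the gene's strand, and the capitals mark CATAAA or AATAAA on either strand. The windows are chr17:8434173-8434422 (plus strand) for T, chr12:118846079-118846328 (plus strand) for the most upstream of 3 starts listed for Sp8, and chr7:132599638-132599887 (minus strand) for Nkx1-2.
T: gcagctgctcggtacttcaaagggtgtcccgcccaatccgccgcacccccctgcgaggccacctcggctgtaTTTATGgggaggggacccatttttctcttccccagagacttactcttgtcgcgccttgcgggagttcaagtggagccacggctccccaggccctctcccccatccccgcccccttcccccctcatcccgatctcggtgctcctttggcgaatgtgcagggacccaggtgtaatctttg
Sp8: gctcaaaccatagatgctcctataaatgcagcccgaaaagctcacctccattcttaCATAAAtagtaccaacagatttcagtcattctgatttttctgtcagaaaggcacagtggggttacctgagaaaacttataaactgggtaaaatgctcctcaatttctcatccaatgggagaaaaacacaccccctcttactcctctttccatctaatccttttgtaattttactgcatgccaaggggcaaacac
Nkx1-2: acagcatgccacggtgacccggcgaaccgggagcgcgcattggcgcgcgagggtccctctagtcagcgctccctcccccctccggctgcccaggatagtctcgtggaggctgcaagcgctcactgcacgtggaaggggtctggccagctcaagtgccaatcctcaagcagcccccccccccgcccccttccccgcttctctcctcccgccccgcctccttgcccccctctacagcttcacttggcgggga
The T window holds TTTATG, which is CATAAA on the reverse strand, 178 to 173 bases before the start. The Sp8 window holds CATAAA on the forward strand, 194 to 189 bases before that start. These letters are not in the Nkx1-2 window. Over 32851 windows of this length in the table, CATAAA occurred on either strand in 10.8%, AATAAA in 18.1% and at least 1 of both in 25.5%, so 1 match in a window is common. Windows were found for 8 of the 10 genes (not for Mixl1 and Sall4), 11 in all, since Pou5f1 has 2 and Sp8 has 3. CATAAA occurred in 2 of the 11 and AATAAA in 4, which were the windows of Eomes and Evx1, 1 of Pou5f1 and 1 of Sp8. The windows of Gdf11 and Lin28a, 1 of Pou5f1 and the middle 1 of Sp8 held neither. Each match is a description of the letters only.

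T encodes the T-box factor that mesoderm and axial progenitors need to form and persist. Its probe (chromosome 17, 8280179 to 8280238 on mm8, plus strand) had aligned ratios of 0.17 on replicate 1, 0.27 on replicate 1 dye swap, 0.06 on replicate 2 and 0.13 on replicate 2 dye swap. All 4 were positive, and the replicate 1 pair lay above the replicate 2 pair. The mean was 0.15 ± 0.10 (SE, n = 2), a 1.11-fold ratio with a 95% interval of 0.967 to 1.28, and limma's adjusted p was 0.433 by replicate numbers and 0.00719 with dye-balanced pairs.

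The T probe was printed 10 times on each array, which gives the spread of its spots within an array. On replicate 1 the 10 spots ran from 0.03 to 0.32 with a median of 0.15. On replicate 1 dye swap they ran from 0.20 to 0.36 with a median of 0.25. On replicate 2 they ran from -0.06 to 0.16 with a median of 0.06, and on replicate 2 dye swap from 0.03 to 0.21 with a median of 0.13. Thus 38 of the 40 spots were above 0, and the 2 below it were both on replicate 2. The spots of replicate 1 dye swap did not overlap those of replicate 2, so that these arrays differ in T by more than the spread of their spots. As aligned, these arrays also hold the mutant in opposite dyes, and the mean Cy5 over Cy3 ratio of T was 0.06. The SD of spots within an array was 0.069 on average, beside a median of 0.062 (0.038 to 0.136) over the 150 tested probes among the 245 printed 10 times. The SD of T between the 4 array means was 0.087, beside a median of 0.089 over these probes. Spots of 1 array share its RNA and labelling and are not replicates of the genotype.

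**Figure D2:**
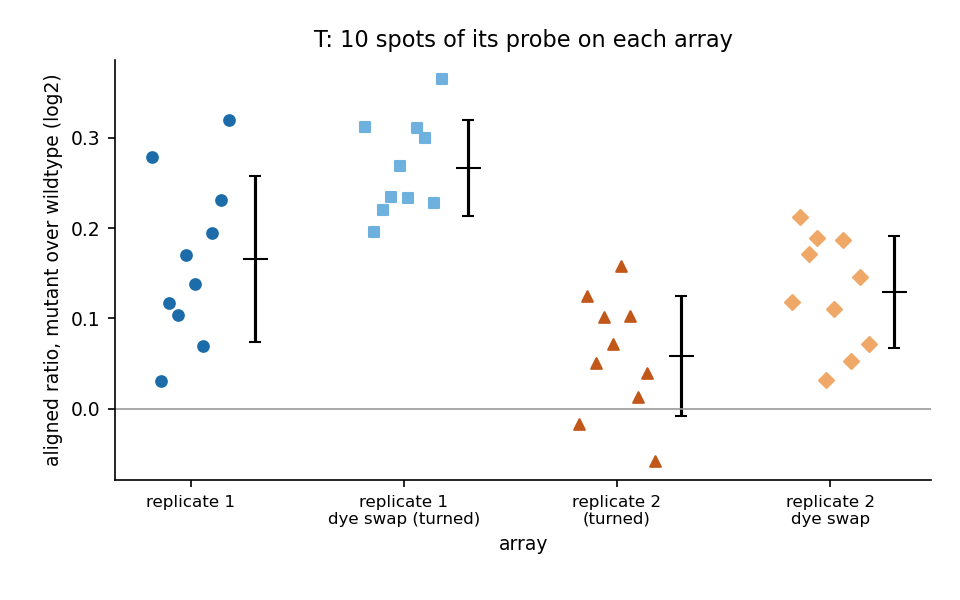
Aligned ratio of T, mutant over wildtype (log2, vertical axis), of the 10 spots of its probe on each of the 4 arrays (horizontal axis), with the array mean and SD as a black bar beside them. The array means lie at 0.17, 0.27, 0.06 and 0.13, and 38 of the 40 spots lie above 0.

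Eomes, the other T-box gene of the group, acts earlier than T in the streak and is needed for definitive endoderm and for mesoderm to leave the epiblast. Its probe (chromosome 9, 118333866 to 118333925) was not well above background in either genotype on any of the 4 arrays. Mean spot signals were 100.3 to 109.3 in Cy3 and 103.4 to 112.4 in Cy5, at 1.19 to 1.99 times the local background. No ratio is given for it. Its expression was not detectable at this signal.

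Among the homeobox genes, Nkx1-2 marks the caudal lateral epiblast, where axial progenitors lie. Its brightest probe (chromosome 7, 132433783 to 132433842, minus strand) had aligned ratios of 0.08, 0.22, 0.32 and 0.27, in the order replicate 1, replicate 1 dye swap, replicate 2 and replicate 2 dye swap. All 4 were positive, and here replicate 1 was the lowest. The mean was 0.22 ± 0.10 (SE, n = 2), a 1.17-fold ratio with a 95% interval of 1.01 to 1.35, and limma's adjusted p was 0.203 by replicate numbers and 5.85e-05 with dye-balanced pairs. The interval lies above 0 on the log2 scale, but the ratio did not pass after adjustment over all genes.

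The other 2 probes of Nkx1-2 showed the same order of arrays with lower values on the replicate 1 pair. The probe at 132435164 to 132435223 had aligned ratios of -0.07, 0.11, 0.39 and 0.26, with a mean of 0.17. The probe whose listed span runs from 132436100 to 132437748 had -0.08, 0.02, 0.27 and 0.25, with a mean of 0.12. It was dim, at 1.62 to 2.49 times background, and well above background in wildtype on 3 of the 4 arrays. Both had a negative value on replicate 1 and positive values on the other 3 arrays. Tested over probes in limma, their adjusted p-values with dye-balanced pairs were 0.00383 and 0.0639, so the dimmer probe did not pass there. By replicate numbers they were 0.415 and 0.641.

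Evx1, a homeobox gene of the posterior streak, was measured by 1 probe (chromosome 6, 52247477 to 52247536), with aligned ratios of 0.14, 0.14, 0.01 and 0.08. The values were all positive, and the one on replicate 2 was close to 0. The mean was 0.09 ± 0.10 (SE, n = 2) with a 95% interval of -0.11 to 0.29, and limma's adjusted p was 0.710 by replicate numbers and 0.135 with dye-balanced pairs. Mixl1, a homeobox gene of nascent mesendoderm in the streak, had aligned ratios of -0.05, 0.04, -0.03 and 0.05 from its probe (chromosome 1, 182530854 to 182530913). Its signs were mixed and its mean, 0.0015 ± 0.10 (SE, n = 2), was the smallest of the group in size. Its 95% interval was -0.20 to 0.20, with a limma adjusted p of 0.997 by replicate numbers. Mixl1 was dim, at 2.70 to 3.44 times background, but above it in both genotypes on all 4 arrays.

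Sp8, a zinc finger factor that acts downstream of Wnt signalling with Sp5 in axial progenitors, had aligned ratios of 0.12, 0.31, 0.11 and 0.25 (chromosome 12, 119295385 to 119295444). All were positive, and both arrays labelled as dye swaps lay above both arrays that are not. The mean was 0.20 ± 0.10 (SE, n = 2), a 1.15-fold ratio with a 95% interval of 0.997 to 1.32, and limma's adjusted p was 0.276 by replicate numbers and 0.000463 with dye-balanced pairs.

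In the dye-balanced fit, the calls of T, Nkx1-2, Sp8 and Sall4 each ended when 1 or more single arrays were left out, with the lone array of a pair standing for it. The adjusted p of T was 0.298 without replicate 1, 0.108 without its dye swap and 0.0924 without the dye swap of replicate 2. That of Nkx1-2 was 0.0873 without replicate 2 and 0.0531 without its dye swap, and that of Sp8 was 0.0802 without replicate 1 and 0.0510 without the dye swap of replicate 2.

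The next genes belong to the pluripotency programme, which the epiblast uses and which posterior tissue loses during somite formation. Sall4, a zinc finger factor of pluripotent and early mesodermal cells, was measured by 2 probes. Its brighter probe (chromosome 2, 168440038 to 168440097, minus strand) had aligned ratios of -0.50, -0.34, -0.10 and -0.08. All were negative, and those of the replicate 1 pair were well below those of the replicate 2 pair. The mean was -0.25 ± 0.10 (SE, n = 2), which is 1.19-fold lower in the mutant, with a 95% interval of -0.47 to -0.04. Limma's adjusted p was 0.153 by replicate numbers and 3.73e-06 with dye-balanced pairs. In the latter it was 0.190 without replicate 1, where the mean was -0.15, and 0.0531 without its dye swap. With median centring of each array in place of loess the Sall4 mean turned to 0.18, which was -0.10 relative to the median of all genes, itself at 0.28 on that scale.

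The second Sall4 probe (168443877 to 168443936), 3779 bases away, did not follow the first across the aligned arrays. Its aligned ratios were 0.01, 0.13, -0.24 and -0.17, so that it was near or above 0 on the arrays where the brighter probe was lowest. Its mean was -0.07, and over probes its limma adjusted p was 0.833 by replicate numbers and 0.325 with dye-balanced pairs. The probes therefore disagreed on the replicate 1 pair, and only the brighter passed with dye-balanced pairs. Before alignment its Cy5 over Cy3 ratios were -0.50, -0.34, 0.10 and 0.08. Their mean was -0.17, larger in size than that of 88.2% of genes tested. Those of the second probe were 0.01, 0.13, 0.24 and 0.17. As aligned, the replicate 1 and replicate 2 pairs hold the mutant in opposite dyes, so a dye bias of either probe would also separate them. Its part in the disagreement was not tested. The brighter probe was at 36.8 to 55.9 times background and the second at 6.39 to 10.7 times.

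Pou5f1, which encodes the pluripotency factor Oct4, had aligned ratios of -0.02, 0.09, -0.18 and -0.08 (chromosome 17, 35118388 to 35118448). Its sign was mixed across arrays, and its mean was -0.05 ± 0.10 (SE, n = 2) with a 95% interval of -0.25 to 0.16 and a limma adjusted p of 0.878 by replicate numbers and 0.474 with dye-balanced pairs. The probe was at 3.20 to 4.56 times background. Pou5f1 has processed pseudogenes, and whether its probe also reads them was not tested.

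Lin28a encodes an RNA-binding protein that blocks maturation of let-7 microRNAs and is high in early embryonic tissue. It was the gene of the group on which the arrays differed most. Its probe (chromosome 4, 133275688 to 133275747, minus strand), at 110.3 to 155.5 times background, had aligned ratios of -0.35 and -0.30 on the replicate 1 pair and 0.27 and 0.28 on the replicate 2 pair. Before alignment its Cy5 over Cy3 ratios were -0.35, -0.30, -0.27 and -0.28, nearly the same on all 4 arrays whichever genotype held the dye. The mean dye ratio was thus -0.30, larger in size than that of 98.3% of genes tested, and the mean aligned ratio was -0.02 ± 0.11 (SE, n = 2) with a 95% interval of -0.26 to 0.21. Limma's adjusted p was 0.956 by replicate numbers and 0.736 with dye-balanced pairs. Without the replicate 1 pair the mean was 0.28 and without the replicate 2 pair -0.32, so either pair alone would give a ratio of opposite sign. Both values lie outside the 95% interval, whose SE is mostly pooled over genes.

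**Figure D3:**
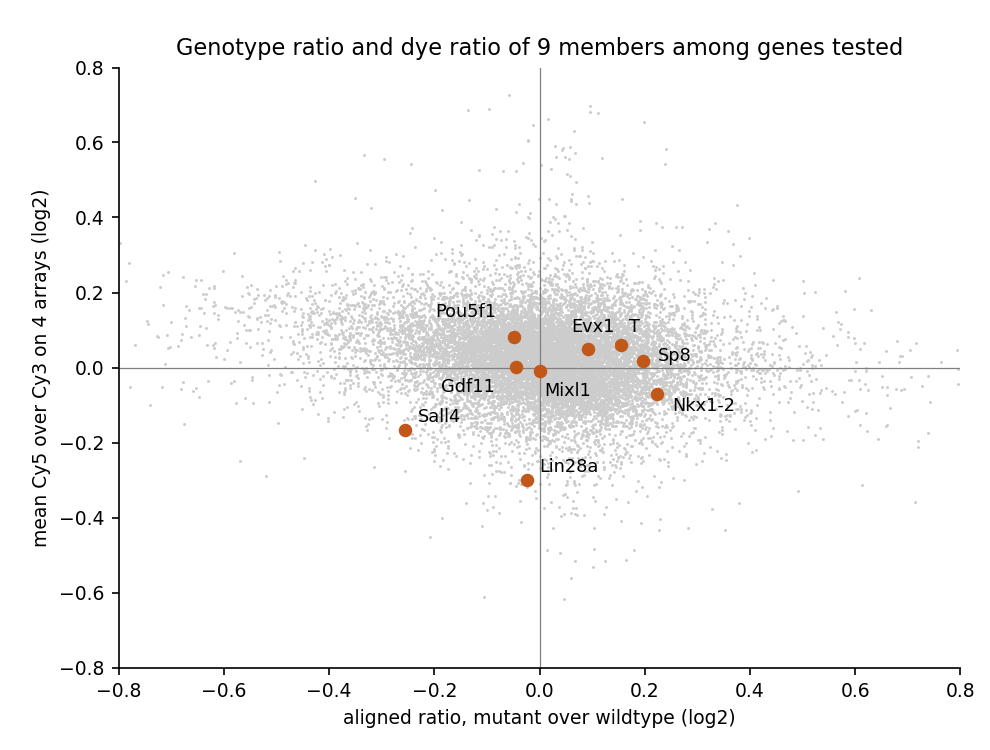
Mean aligned ratio, mutant over wildtype (log2, horizontal axis), against the mean Cy5 over Cy3 ratio on the 4 arrays (log2, vertical axis), for the 9 tested genes of the group (orange) among the 14843 genes tested (grey, of which 67 lie outside the plotted range of 0.8 on either axis). Lin28a lies at -0.02 and -0.30, far from 0 in the dye ratio and near 0 in the genotype ratio, whereas Nkx1-2 lies at 0.22 and -0.07.

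The dye ratio was larger in size than the aligned ratio for 3 of the 9 genes (Mixl1, Pou5f1 and Lin28a), beside 38.3% of all genes tested. The sign was the same on all 4 arrays for 6 of the 9 (T, Nkx1-2, Evx1, Sp8, Sall4 and Gdf11), beside 44.5% of all genes. The SD over the 4 arrays ran from 0.012 (Gdf11) to 0.35 (Lin28a) with a median of 0.097, beside 0.107 over all genes.

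Gdf11, the only secreted ligand of the group, is a TGF-beta family signal that sets the position of the change from trunk to tail through activin receptors and the posterior Hox genes. Its probe (chromosome 10, 128288177 to 128288236) had aligned ratios of -0.06, -0.03, -0.05 and -0.05. These were all negative, all close to 0, and the least variable of the group. The mean was -0.05 ± 0.10 (SE, n = 2) with a 95% interval of -0.25 to 0.16 and a limma adjusted p of 0.883 by replicate numbers and 0.498 with dye-balanced pairs. The probe was at 2.21 to 2.74 times background. In the dye-balanced limma fit it passed with the scanner's own processed signals (mean -0.17, adjusted p = 0.0328) and with no background correction (mean -0.08, adjusted p = 0.0410).

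The genes around the group in the same programmes were counted next, beside 3.28% of all genes tested that passed as higher and 4.44% as lower. The counts given for these 5 lists hold for the settings above: by replicate numbers, no gene of any of them passed with no filter on dim probes, with median centring in place of loess or with scaling between arrays, where 14, 8 and 0 of all genes passed. Of 16 neighbours of the axial progenitor programme 14 were tested, of which 6 were higher and 1 lower in both limma fits, and their median aligned ratio was 0.24 beside 0.015 over all genes. Sox2, a neural and progenitor factor, was at 0.52 ± 0.10 (SE, n = 2, adjusted p = 0.000943). Hes3, a repressor of the Hes family, was at 0.40, Notum, a secreted Wnt inhibitor, at 0.38, and Fgf17, a ligand, at 0.37, each with an SE of 0.10. Wnt8a at 0.36 and Wnt3a at 0.34 also passed. Cyp26a1, which degrades retinoic acid in the tail end, was the 1 lower gene, at -0.65 ± 0.10 (adjusted p = 7.26e-05). By replicate numbers, leaving out a single array left 1 higher gene without replicate 1, 2 without its dye swap, 1 without replicate 2 and 3 without its dye swap, with 1 lower gene each time. The ratios of T (0.15), Sp8 (0.20) and Nkx1-2 (0.22) were below those of each of the 6, a difference that was not tested. Since SEs were nearly equal, this order follows from which genes passed.

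Of 18 genes of the primitive streak and nascent mesoderm 14 were tested, with 4 higher, none lower and a median of 0.18. Mesp1, a factor of nascent cardiac and cranial mesoderm, was at 0.56 ± 0.10 (SE, n = 2, limma adjusted p = 0.000367). Lhx1, a LIM homeobox gene, was at 0.42, and Nodal, a TGF-beta family ligand that patterns the streak, was at 0.33. With single arrays left out, 1 gene passed without replicate 1 and 2 passed without each of the others. Tdgf1, Cer1 and Otx2 of this list, like Eomes, did not pass the dim-probe filter. That filter asks for signal well above background on all 4 arrays in at least 1 genotype.

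Of 20 genes of the pluripotency network and the Lin28 axis 14 were tested, and 1 passed as higher, Sox2, which the progenitor list also holds. The median was 0.03. Nanog, Esrrb, Fgf5 and Dppa4 did not pass the dim-probe filter.

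Of 26 genes of Gdf11 signalling and the trunk-to-tail Hox genes 18 were tested, with 2 lower and none higher, and the median was -0.02. The 2 were posterior Hox genes, Hoxd13 at -0.65 ± 0.10 (SE, n = 2, limma adjusted p = 0.000119) and Hoxa11 at -0.44 ± 0.10 (adjusted p = 0.00572). Neither passed without replicate 1. None of the tested genes for receptors (Acvr1b, Tgfbr1, Acvr2a and Acvr2b), for Smads (Smad2, Smad3 and Smad4), for proteases (Pcsk5 and Furin) or for secreted inhibitors (Fst and Fstl3) passed in both fits, and Smad3, at 0.30 ± 0.10, passed with dye-balanced pairs (limma adjusted p = 4.62e-08) but not by replicate numbers (0.07). Mstn, the closest relative of Gdf11, did not pass the dim-probe filter.

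Of 35 paralogs of the group's genes 22 were tested, with 4 lower and none higher, and the median was -0.10, or 0.0012 with no filter on dim probes. The 4 were the T-box genes Tbx3 at -0.52, Tbx2 at -0.45 and Tbx20 at -0.38, and Sp1 at -0.48, each with an SE of 0.10 to 0.11. Only 1 of the 4 passed without replicate 1, 3 passed without replicate 1 dye swap or replicate 2, and 4 without replicate 2 dye swap. These 3 T-box genes are known from limb, heart and lateral mesoderm. Tbx1 at 0.22 and Tbx6 at 0.17, like T, had positive ratios on all 4 arrays and did not pass by replicate numbers.

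**Figure D4:**
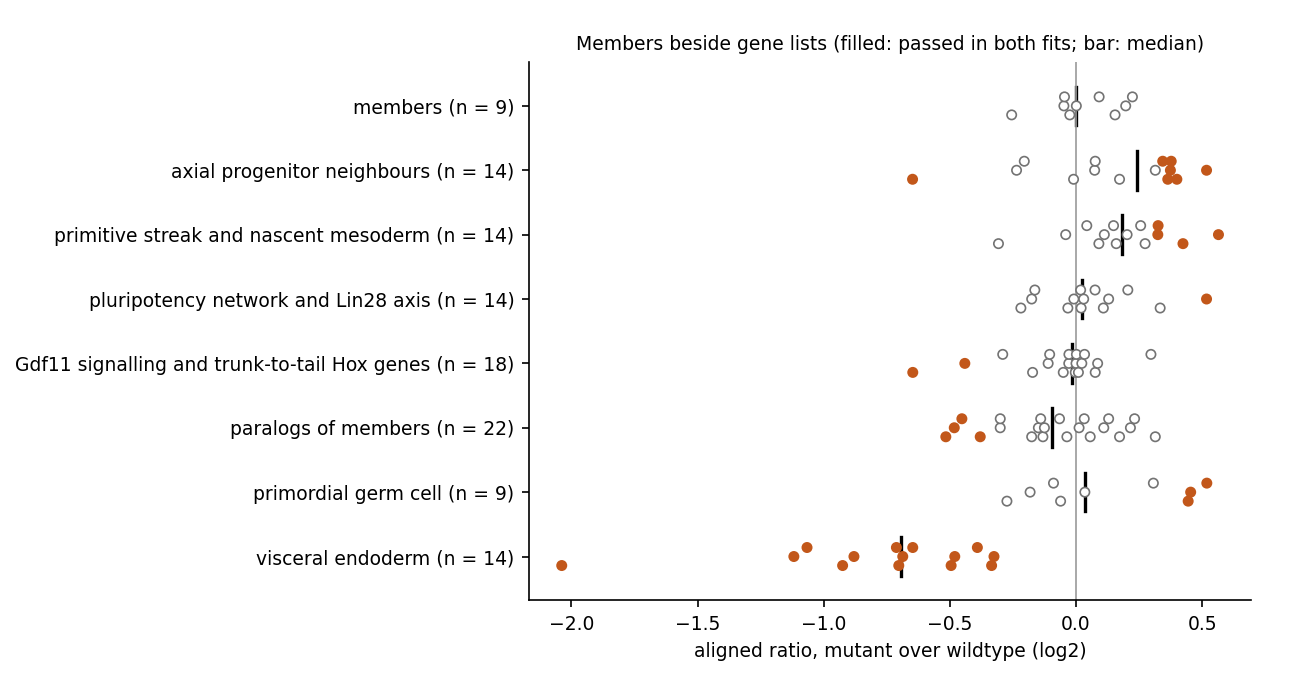
Aligned ratio, mutant over wildtype (log2, horizontal axis), of the tested genes of the group and of each list (vertical axis, with the number tested), where filled points passed in both limma fits and the bar is the median. The 9 genes of the group lie between -0.25 and 0.22 with none filled, while 14 of 14 visceral endoderm markers are filled and negative.

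Markers of other cells that the cut could hold were read beside these results. Over all genes tested, 3.28% passed as higher and 4.44% as lower in both fits. The marker counts, too, hold only for the settings above. By replicate numbers 14 of all genes passed with no filter on dim probes, 8 with median centring and 0 with scaling between arrays. For germ cells, which also carry Pou5f1 and Sall4, 3 of 9 tested markers were higher (Alpl 0.52, Tfap2c 0.45 and Ifitm3 0.44), none was lower and the median was 0.04. Their summed level was 8099 to 11698 in the mutant and 6742 to 9498 in wildtype, and the markers Nanos3 and Dazl did not pass the dim-probe filter. For visceral endoderm, 14 of 14 were lower with a median of -0.69, and the summed level was 44755 to 56037 in the mutant and 90102 to 122381 in wildtype, so the ranges did not overlap. For somite and paraxial mesoderm, 4 of 8 were higher, none was lower and the median was 0.33, with sums of 8756 to 12494 against 6700 to 9170. For primitive erythroid cells 3 of 4 were higher and for neural plate 3 of 4, for gut endoderm 2 of 7 and for notochord and node 1 of 4. For endothelium 5 of 12 were lower and for lateral plate 1 of 8, and for trophoblast 1 of 6 was higher and 1 lower. None of 6 anterior brain markers passed the dim-probe filter. The part of these cell types in the ratios of T, Nkx1-2, Sp8 and Sall4 was not tested.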

How the data were processed

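Mutant and wildtype RNA were hybridised together on 4 arrays of 1 slide, labelled as 2 replicates with dye swaps. Spots were read with Agilent Feature Extraction (version 9.5.3), as the submitters' processing notes state. The deposited scanner files give spot intensities, and the authors' series table gives log10 ratios. With a tolerance of 1e-05 that table equalled the scanner log ratio on 100% of features, with its sign turned on the 2 dye swaps, and each column had a median of 0. Its scale is thus log10 and its direction that of the labels.

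Background correction was normexp (offset 50) in limma 3.58.1 under R 4.3.3, followed by loess within each array with control spots at weight 0. Control and outlier spots (103 to 167 per array) were left out, and the spots of a probe were averaged. Probes well above background on all 4 arrays in at least 1 genotype were tested (21801), and each gene is its brightest tested probe. Between 50.6% and 56.4% of spots passed background in Cy3, and 58.9% to 64.9% in Cy5. Array number limits the precision.

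Log2 ratios were fitted with lmFit and eBayes. Limma set 25.7 prior degrees of freedom by replicate numbers and an infinite number with dye-balanced pairs. Standard errors and intervals are moderated values by replicate numbers. The fit was tested on simulated data. Named list genes are those that passed in both fits, up to the 5 largest per list, and Wnt8a and Wnt3a were added after their values were seen. The value of 1 gene of the primitive streak list is not reported here. The genes and lists were chosen with earlier results of these data known. Probe positions are those of the files, on mm8. Alternatives covered pairing, background, normalisation, the dim-probe filter and single arrays.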

Additional observations from a re-analysis of the deposited data

How the results depend on the processing

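With replicate numbers, 0 of the 9 genes passed under every alternative run except other pairings of the aligned arrays, which gave 4 with dye-balanced pairs and 5 with replicate 1 paired with replicate 2 dye swap. With dye-balanced pairs the 4 calls became 0 with median centring in place of loess, 0 with loess and scaling between arrays, 0 with only the first and last array, whose labels match the alignment, 0 with only the other 2 (an alternative chosen after seeing the data), and 1 to 3 with single arrays left out. They became 5, with Gdf11 added, with no background correction, with the scanner's processed signals and with the authors' series table. As labelled, 0 passed, also with replicate 2 turned. The as-labelled fit put Cdx4 itself at -0.02, as described above. Median centring moved the median of all genes to 0.28 and reversed Sall4 to 0.18, and it called 8 of all genes by replicate numbers and 1 with dye-balanced pairs, and scaling between arrays called 0 in both. Relative to that shift Sall4 was -0.10, T 0.27, Nkx1-2 0.28 and Sp8 0.25. Which of T, Nkx1-2 and Sp8 was highest depended on the setting, with Sp8 at 0.20 and Nkx1-2 at 0.17 as means over a gene's probes. It also turned the medians of the Gdf11 and paralog lists to 0.17 and 0.19, both under that shift. The list and marker genes that passed kept their sign under each scaling, except the visceral endoderm marker Dab2, which was positive with median centring until that shift was subtracted. By replicate numbers the genes called of all ran from 253 to 937 with single arrays left out, beside 1146 with all 4. With no filter on dim probes they fell to 14 by replicate numbers, against 6836 with dye-balanced pairs, and no gene of the 5 lists passed by replicate numbers. No paired analysis was possible because mutant and wildtype share each array, so that the ratio already pairs them and there is a single group of ratios. No gene of the group could be tested after leaving out a whole replicate number, since 1 value remained. Dim signal limits Eomes, Gdf11, Mixl1 and Pou5f1.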
